A study of Mus musculus with 4 samples.

Results

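Cadherin and protocadherin genes were represented by 22 of the 5432 regions in which the authors listed a difference in H3K9me3 between microglia of Arid1a knockout embryos and of control embryos. A region was taken when the gene with the nearest transcription start, or the gene whose intron or exon held the region, had a symbol starting with Cdh and a digit, Cdhr or Pcdh. Of the 22 regions, 21 belonged to 11 genes outside the protocadherin clusters and 1 to the clustered gene Pcdhgc3. The knockout (KO) libraries were taken as those of Arid1acKO-Cx3cr1 embryos, whose name ties a conditional loss of Arid1a, which encodes a SWI/SNF chromatin remodelling protein, to Cx3cr1, a gene of microglia and other macrophages. The control libraries, labelled WT, were taken as those of Arid1afl/fl embryos, which carry floxed alleles. Both were of strain C57BL/6 and of stage E14 by the labels and E14.5 by the protocol, and 100000 microglia per sample were sorted from the telencephalon. Each genotype gave 1 H3K9me3 library and 1 IgG library by CUT&Tag, an assay in which a transposase bound to antibodies cuts DNA at the mark. The labels used here describe neither the Cre line, the sex of the embryos nor how many were pooled.

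H3K9me3 is a histone mark of silent chromatin. Cadherins are calcium-dependent adhesion proteins that join cells by binding a like molecule on the neighbour, and catenins tie their cytoplasmic tails to actin. Protocadherins are a larger and more divergent branch, most abundant in the nervous system. The clustered protocadherins, Pcdha, Pcdhb and Pcdhg, lie side by side on mouse chromosome 18, and neurons choose among their many promoters, which gives each cell its own surface code. Silencing of unchosen cluster promoters involves DNA methylation and H3K9 methylation, and the looping of chosen ones involves CTCF and cohesin.

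The lists give a direction and a score per region, but no value per library, so every statement below on higher or lower H3K9me3 is the authors' call between 2 libraries, without a replicate check. Numbers in brackets after a region are the authors' peak scores. Their scale is not stated, so they were used only to rank regions within a list and were not read as fold changes. Ranges in brackets after a share or density are exact Clopper-Pearson 95% intervals for shares, and exact Poisson ones for densities, and cover counting error alone. Coordinates are as in the lists, whose gene positions match GRCm38. The submitters' notes name mm9, and the build of the regions is not stated. Comparisons of regions with RefSeq spans and windows below therefore assume that the regions are on GRCm38. No region was assigned to Arid1a, so the loss could not be checked here, and since the lists hold no levels, neither could the identity of the cells. Of 13 marker genes of microglia 1 had a region, Csf1r (6.31), which was higher in KO. Of 12 genes of neural progenitors and neurons 5 had regions, 3 of them higher and 2 lower, and of 12 vascular and erythroid genes 5 had regions, 4 of them higher and 1 lower. Of all 21887 protein-coding genes in RefSeq, 10.7% had a region. The part of other cell types in the results below was not tested.

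Of the 22 regions, 15 were higher and 7 were lower in KO than in WT. The share higher was 68.2% (45.1 to 86.1), and its interval covers the 64.2% of all listed regions that were higher, the other 35.8% being lower. The members made up 0.430% of the list of increases and 0.360% of the list of decreases. Of the 12 genes, 7 had higher regions alone (Cdh4, Cdh12, Cdh13, Cdh18, Cdh26, Pcdh1 and Pcdhgc3), 2 had lower regions alone (Cdh16 and Pcdh19), and 3 had regions in both lists (Pcdh7, Pcdh9 and Pcdh15). By RefSeq gene span, Cdh13 and Cdh18 each also held 1 lower region, which the lists name for other genes. Cdh18 then also held 3 higher regions in place of 1. The regions were short, with a median width of 408 bp in the list of increases and 345 bp in that of decreases, against 404 and 357 bp for all regions of those lists.

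3 promoter windows are shown because the results turn on their genes. Pcdh19 had a region in its promoter. Pcdh7 had the most regions of the family as the lists assign them, though by RefSeq span Cdh13 and Cdh18 held as many. Pcdh15 had a region upstream of the start shown in 1 list and a region downstream of it in the other. That Pcdh15 start lies inside the RefSeq span of the gene, which holds both regions. Each of these windows runs from 250 bases before to 50 bases after a start site of the gene, from RefSeq on GRCm38.p6, 5′ to 3′ on the strand of the gene, with CG pairs, the sites of DNA methylation, in capitals. Windows of 27 family genes were in the table, among them 7 of the 12 genes with a region.
Pcdh19, chrX:133688944-133689243, minus strand: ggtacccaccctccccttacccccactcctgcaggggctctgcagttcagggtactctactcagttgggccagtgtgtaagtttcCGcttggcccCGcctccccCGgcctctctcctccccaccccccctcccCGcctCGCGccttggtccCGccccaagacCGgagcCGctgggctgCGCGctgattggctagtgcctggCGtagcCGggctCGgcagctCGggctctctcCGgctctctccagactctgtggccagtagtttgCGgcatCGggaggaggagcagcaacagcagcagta
Pcdh7, chr5:57717831-57718130, plus strand: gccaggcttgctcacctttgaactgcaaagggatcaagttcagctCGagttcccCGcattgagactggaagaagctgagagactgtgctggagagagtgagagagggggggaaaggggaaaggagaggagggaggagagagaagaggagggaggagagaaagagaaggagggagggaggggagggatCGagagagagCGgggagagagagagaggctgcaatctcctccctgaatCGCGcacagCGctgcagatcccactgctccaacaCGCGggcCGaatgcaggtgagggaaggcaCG
Pcdh15, chr10:73821617-73821916, plus strand: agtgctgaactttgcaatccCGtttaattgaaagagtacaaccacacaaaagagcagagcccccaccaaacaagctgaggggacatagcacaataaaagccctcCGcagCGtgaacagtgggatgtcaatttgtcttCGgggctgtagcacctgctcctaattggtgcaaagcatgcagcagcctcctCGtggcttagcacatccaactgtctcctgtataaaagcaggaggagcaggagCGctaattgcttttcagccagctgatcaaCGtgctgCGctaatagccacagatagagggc
The Pcdh19 window held 18 CG pairs, and 29.7% of the 32851 windows of all genes held as many or more. The Pcdh7 window held 11, with as many or more in 41.4% of windows, and the Pcdh15 window 8, with as many or more in 48.6%. No region of the family overlapped any of these windows. The lower region of Pcdh19 began 486 bases upstream of its window, the nearest Pcdh7 region lay 16.1 kb downstream and the nearest Pcdh15 region 58.4 kb upstream. Among these 27 genes, the 8 windows of the 7 genes with a region had a median of 11.5 CG pairs. The 22 windows of the 20 genes without one had a median of 8.5, and all windows 7. The ranges overlapped widely (4 to 19, 2 to 38 and 0 to 67). Pcdh9 entered the first set more than once, and no clustered gene had a window, so these medians do not stand for the whole family.

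Among the classical cadherins, whose tails bind catenins, all 5 regions that the lists assign to 3 genes were higher in KO. The RefSeq span of Cdh18 held a lower region as well, on chromosome 15 from 22564658 to 22565024 (2.08), classed as distal intergenic. By span this gene held 3 higher regions and 1 lower region, of which the lists assign 1 higher region to it. Cdh4 (R-cadherin, of retina and brain) was the member of the 5 type I genes with regions, and Cdh12 and Cdh18, brain cadherins, were those of the 13 type II genes. Cdh12 had a region of score 6.30 on chromosome 15 from 21404584 to 21405057, in intron 4 of 12, above the scores of 95.1% of the list of increases. Its other region, from 21198235 to 21198891 in intron 2, scored 3.18. They lay 293 and 87.1 kb downstream of a RefSeq start that is inside the gene span. From the end of that span with the lower coordinate they lay 956 and 750 kb away. Cdh4 had 2 regions in intron 2 of 15 on chromosome 2, from 179571686 to 179571971 (2.52) and from 179703904 to 179704493 (2.93), with 132 kb between them. Cdh18 had a region in intron 3 of 11 on chromosome 15 from 23253433 to 23253805, whose score of 1.95 is the commonest in the list of increases.
5 regions are few beside a background of 64.2% higher. No region was assigned to the other type I genes Cdh1 (E-cadherin), Cdh2 (N-cadherin), Cdh3 (P-cadherin) and Cdh15, or to the type II genes Cdh5 (VE-cadherin of endothelium), Cdh6, Cdh7, Cdh8, Cdh9, Cdh10, Cdh11, Cdh19, Cdh20, Cdh22 and Cdh24.

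Cadherins that depart from the classical plan had 4 higher regions and 1 lower region. Cdh13 encodes T-cadherin, which is held in the membrane by a lipid anchor and has no tail for catenins. It had 3 higher regions on chromosome 8 over introns 2 and 6 of 13, and a lower region (2.47) inside its RefSeq span was classed as distal intergenic. The region in intron 6 from 119062981 to 119063681 had the highest score of the family in the list of increases, 7.24, above 97.1% of that list. It was 701 bp wide, and another region of the same intron, from 119002271 to 119002696 (2.93), lay 60.3 kb from it. The region in intron 2, from 118622168 to 118622508, scored 1.49, above 7.25% of that list.
Cdh16, which encodes the kidney cadherin, had the widest region of the family, 765 bp, in the list of decreases. It lay on chromosome 8 from 104626281 to 104627045, 1.89 kb upstream of the start in the promoter class, and its score of 6.54 exceeded 96.0% of that list. Cdh26, known in epithelia, was the nearest gene to a higher region (1.61) between genes, on chromosome 2 from 178605540 to 178606235, at 175 kb from its start. No region was assigned to Cdh17, Cdh23, the partner of Pcdh15 in the ear, or Cdhr1, Cdhr2, Cdhr3, Cdhr4 and Cdhr5.

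The delta-1 protocadherins, of which Pcdh7 and Pcdh9 are strongly expressed in the developing brain, had 4 higher and 4 lower regions in 3 of their 4 genes. Pcdh7 on chromosome 5 was the only family gene with more regions in the list of decreases than in that of increases among those with regions in both. Its higher region, from 57734197 to 57734472 in intron 1 of 2, scored 2.93 and lay 16.3 kb downstream of the RefSeq start. The 3 lower regions followed further into the gene, 71.0, 97.3 and 221 kb from that start. They ran from 57788927 to 57789222 in intron 1 (2.22), from 57815218 to 57815545 in intron 1 (3.33) and from 57939124 to 57939468 in intron 2 (10.6). The last had the highest score of the family in the list of decreases and exceeded 99.2% of that list.
Going along the gene, the call thus switched once, across 54.5 kb, and then stayed lower over the next 3 regions. The numbers in the region names follow the position along each chromosome. None was missing between the first and the last region of Pcdh7, or of any other family gene with several regions. Of 1645 genes that held a region in an intron or exon, 285 held at least 2 regions. Among them 6 genes held 3 lower regions and none held more, and 33 held 3 or more higher regions, Cdh13 included. Beside Pcdh7, the genes with 3 lower regions were Csmd2, Grin2b, Magi2, Megf10 and Rbms3.

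Pcdh9 on chromosome 14 had 2 higher regions and 1 lower region. The higher region in intron 2 of 4 from 93721653 to 93722161 scored 4.23 and lay 169 kb downstream of the start, and the lower region of the same intron from 93780857 to 93781291 scored 3.07 and lay 110 kb downstream. Opposite calls thus stood 58.7 kb apart within an intron. The other higher region, from 93046836 to 93047205 in intron 4, lay 844 kb downstream and had the lowest score of the family in the list of increases, 1.48. Pcdh1, a delta-1 protocadherin of epithelia and neurons, was nearest to a higher region of score 1.61 on chromosome 18 from 38216271 to 38216576. It lay 4.22 kb upstream of the Pcdh1 start, in an intron of 2010320O07Rik. No region was assigned to Pcdh11x.

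**Figure D1:**
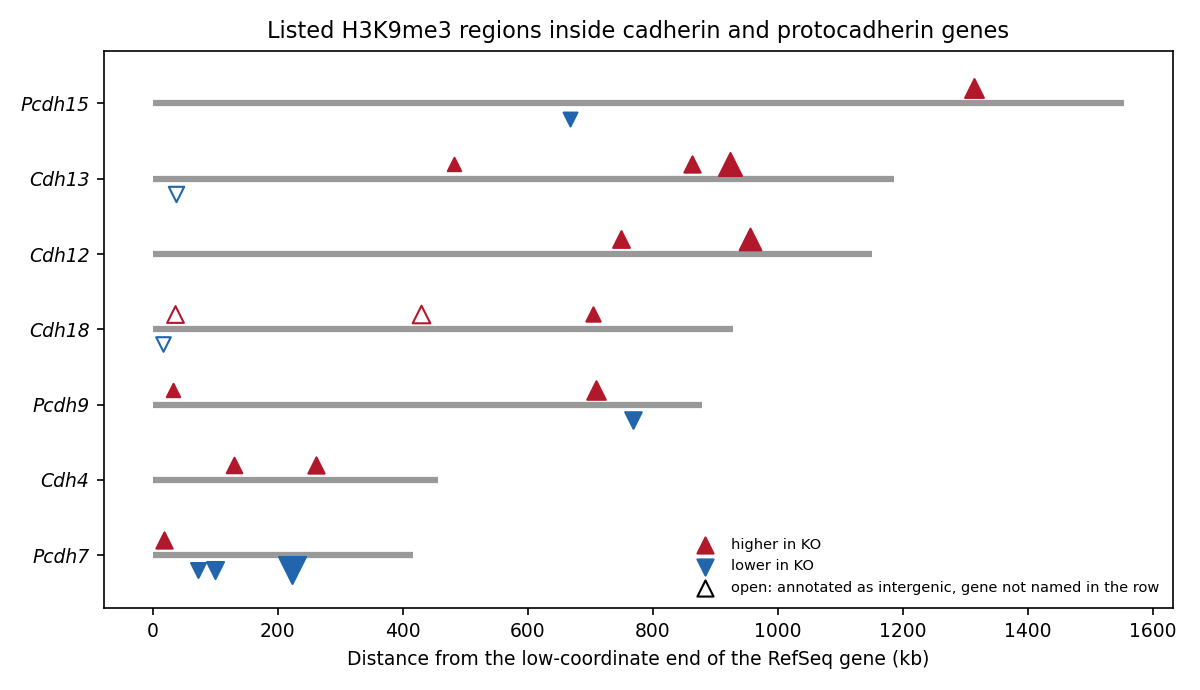
Positions of the listed regions inside the 7 long family genes that hold any. Grey bars are RefSeq gene spans in kb from the end with the lower coordinate, red triangles above the bars are regions higher in KO, blue triangles below them regions lower in KO, and the size of a triangle follows the authors' score. Filled symbols are regions that the lists assign to the gene, and open ones are 4 more that lie inside its span. The 3 lower regions of Pcdh7 lie at 72.9, 99.2 and 223 kb, beyond its higher region at 18.2 kb.

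The delta-2 protocadherins, which signal to actin through the WAVE complex, had 1 region among 5 genes. Pcdh19, the X-linked gene mutated in a human epilepsy, had a lower region on chromosome X from 133689730 to 133690081, 0.743 kb upstream of the start and so in the promoter class. Its score of 4.22 was above 83.2% of the list of decreases. Both promoter regions of the family, those of Pcdh19 and Cdh16, were lower in KO, whereas of all 688 listed promoter regions 63.8% were higher. 2 regions are too few to set against that share. No region was assigned to Pcdh8, Pcdh10, Pcdh17 and Pcdh18.
Pcdh15, which encodes a filament of the tip links that open hair cell channels, had regions in both lists on chromosome 10. The higher region, from 74410119 to 74410526 in intron 16 of 30, scored 4.4. The lower region, from 73762976 to 73763259, scored 1.73 and was classed as distal intergenic, 58.6 kb upstream of the start used in the lists. The RefSeq span of the gene reaches further upstream and contains both. No region was assigned to the other non-clustered genes Pcdh12 and Pcdh20.

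**Figure D2:**
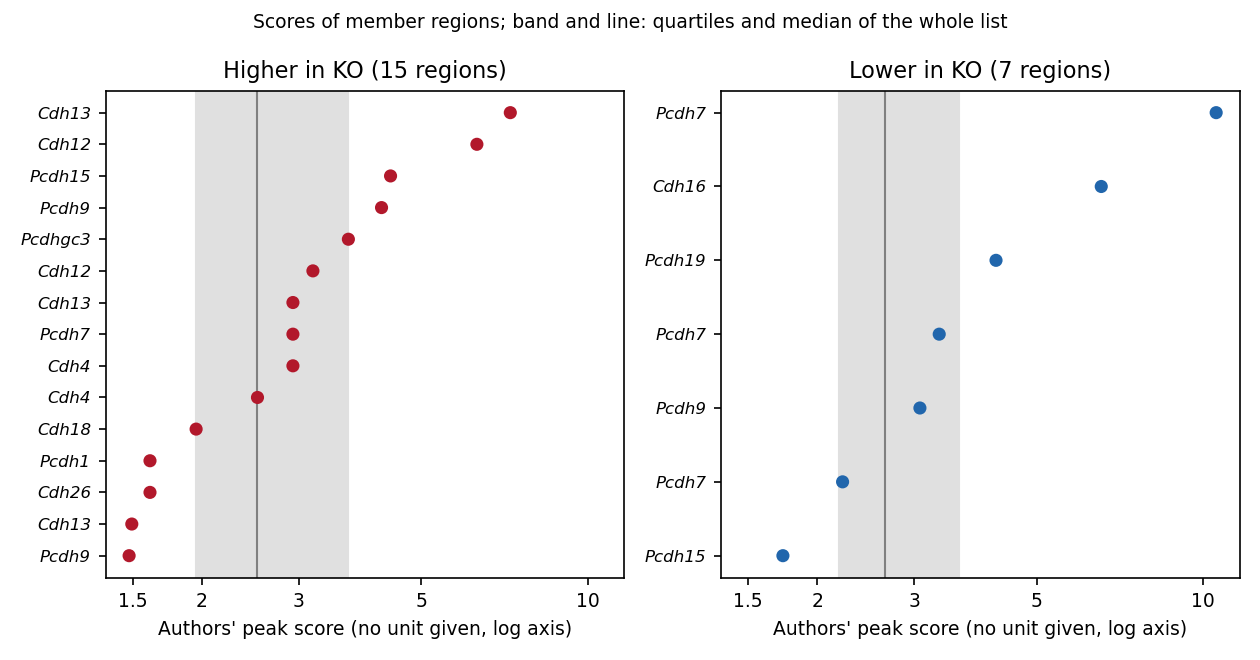
Authors' peak scores of the 22 member regions on log axes, 1 point per region, with the regions higher in KO on the left and those lower in KO on the right. The grey band and the line give the quartiles and the median of each whole list; among the members, Cdh13 and Cdh12 have the highest scores in the list of increases and Pcdh7 and Cdh16 in that of decreases.

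Member scores were spread through both lists. Their median was 2.93 in the list of increases and 3.33 in the list of decreases, against 2.52 and 2.66 for all regions of those lists. Scores took few values: the 3488 regions of the list of increases had 190 distinct scores and the 1944 of the list of decreases 165. Cdh4, Pcdh7 and Cdh13 each had a region with the same score in the list of increases, which 65 regions of that list shared, so that ranks among them carry no order.

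The clustered protocadherins had the single region at Pcdhgc3, against 21 regions at the genes outside the clusters. The region was higher in KO and lay on chromosome 18 from 37798531 to 37798856, 7.55 kb upstream of the Pcdhgc3 start, with a score of 3.69, above 73.7% of the list of increases. The lists place it in intron 1 of 3 of Gm42416. By RefSeq spans it also lay inside 19 of the 22 Pcdhg genes, from Pcdhga1 to Pcdhga12. Genes of the Pcdhg cluster join their own first exon to shared last exons, so that the region sits downstream of the first exons of those genes and ahead of Pcdhgc3, Pcdhgc4 and Pcdhgc5. The nearest gene start is therefore one way of naming it, and the 19 spans are not independent hits. No listed region lay at the 14 Pcdha or the 22 Pcdhb genes.
The nearest listed regions stood 376 kb before the first Pcdha gene and 374 kb after the last Pcdhg gene. The first was a lower region nearest to Ankhd1 (2.22), and the second was that of Pcdh1. 1 region number between that of Pcdhgc3 and that of Pcdh1 is in neither list, and its position is not known here.

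**Figure D3:**
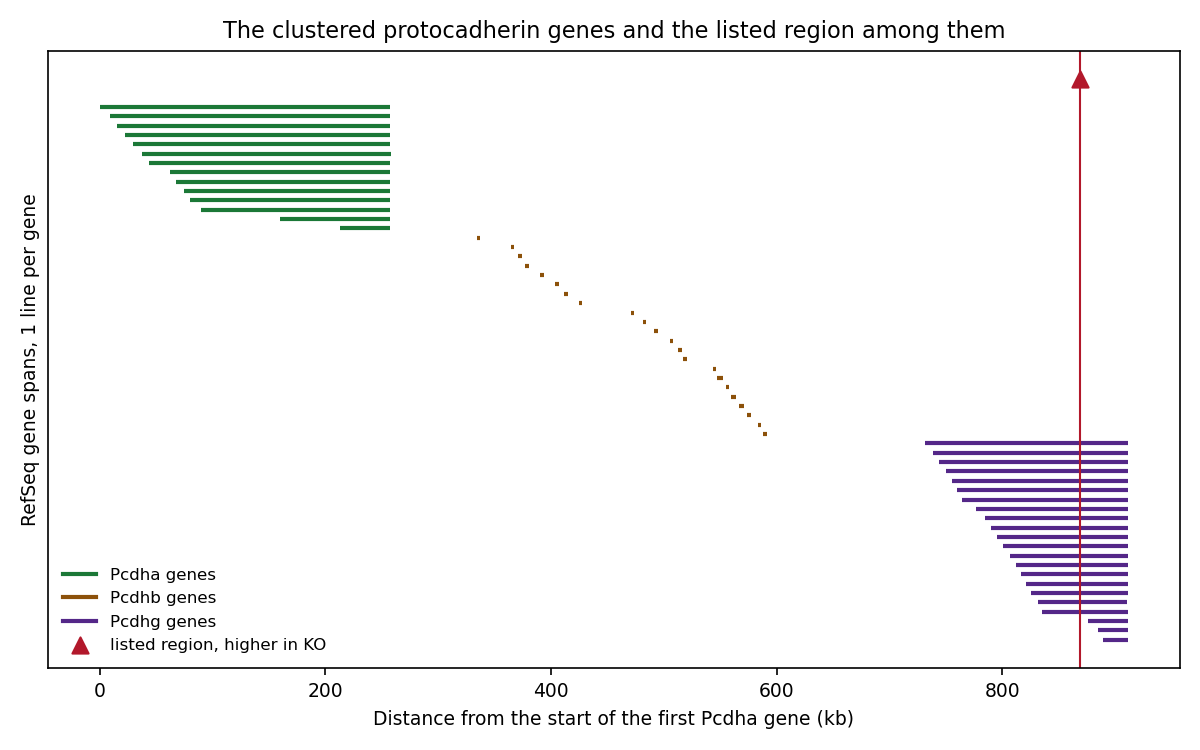
RefSeq spans of the 58 clustered protocadherin genes, 1 line per gene, in kb from the start of the first Pcdha gene; green lines are Pcdha, brown lines Pcdhb and purple lines Pcdhg genes. The red line and triangle mark the listed region, higher in KO, which crosses 19 Pcdhg spans and lies before Pcdhgc3.

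Fewer clustered genes had a region, but the clusters cover little DNA. Of the 58 clustered genes 1 had a region (1.72%), against 11 of the 40 outside the clusters (27.5%), and 12 of all 98 (12.2%). Of the 21887 protein-coding genes in RefSeq 10.7% had one. A higher region was assigned to 10 of the 98 genes (10.2%) and a lower one to 5 (5.10%), against 7.21% and 4.53% of protein-coding genes. The clustered genes overlap one another, and together their spans cover 514 kb, against 10.2 Mb for the genes outside. Regions inside the spans came to 1.94 per Mb in the clusters (0.0492 to 10.8) and 2.06 per Mb outside them (1.27 to 3.14), and to 2.11 per Mb over all protein-coding genes (2.02 to 2.20). At the density over all protein-coding genes, the clusters would hold 1.08 regions and held 1, and the whole family would hold 22.6 and held 22. The interval for the clusters, from 1 region, spans all the other densities and is too wide to show whether they differ.

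Family genes with regions were mostly long. Outside the clusters, the 11 genes with a region had a median length of 457 kb (22.5 to 1554) and the 29 without one 59.7 kb (4.54 to 620). Of the 10 family genes of at least 300 kb, 7 held regions (70.0%), against 65.4% of the 557 protein-coding genes of that length. Cdh8, Cdh23 and Pcdh11x were the long genes without one. The long family genes had 2.63 regions per Mb (1.63 to 4.02), close to the 2.23 per Mb (2.07 to 2.40) of all protein-coding genes of that length. The 88 shorter family genes held 1 region, that of the clusters, where the density over all protein-coding genes would give 5.78. This came to 0.364 per Mb (0.00922 to 2.03), against 2.05 per Mb (1.95 to 2.16) for all protein-coding genes under 300 kb. None of the 30 shorter genes outside the clusters held a region within its span. The limit of 300 kb was set after the values were seen. Pcdh7, at 417 kb, is the shortest gene outside the clusters with a region inside, so the count below the limit describes this split alone. The regions of Pcdh19, Cdh16 and Pcdh1, all shorter genes, lay 0.686, 1.89 and 4.22 kb outside the spans.

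**Figure D4:**
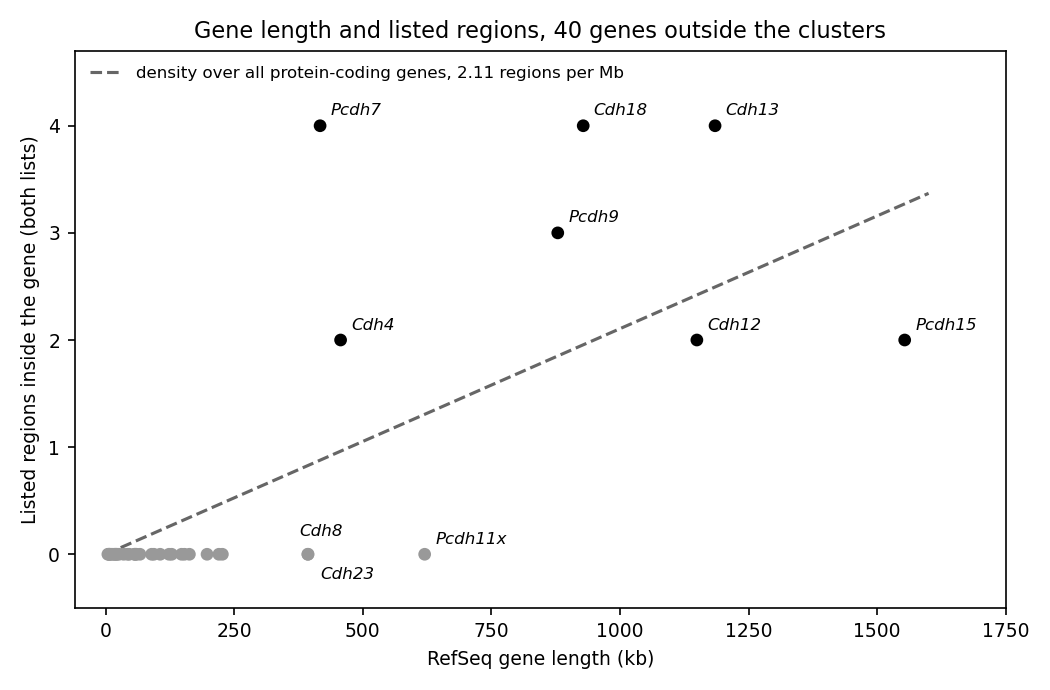
Number of listed regions inside each of the 40 family genes outside the clusters, both lists together, against RefSeq gene length in kb. Black points are genes with a region inside the RefSeq span and grey points genes without one inside. Cdh16, Cdh26, Pcdh1 and Pcdh19, whose assigned regions lie outside their spans, are grey. The dashed line is the density over all protein-coding genes, 2.11 regions per Mb; the 7 genes with a region inside are all of at least 300 kb, and Pcdh7 has 4 regions in 417 kb.

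Most member regions were intronic, which the way of choosing them favours, since only rows in introns or exons name a host gene. Of the 22, 18 lay in an intron (81.8%), 2 in a promoter (9.09%) and 2 between genes (9.09%), against 35.8%, 12.7% and 47.4% of all listed regions. Of the 16 regions that lay in an intron of a family gene, 12 were higher in KO (75%, 47.6 to 92.7), against 63.6% of all 1945 intronic regions. In 12 of these 16 the nearest start was that of a predicted gene, in 2 that of a RIKEN clone, in 1 that of Hsbp1 and in 1 that of Cdh18 itself. The median distance to the nearest start of any gene was 80.0 kb for higher and 5.57 kb for lower member regions, against 20.9 and 19.0 kb for all regions of those lists. The figure for lower regions rests on 7 regions, of which 2 are the promoter regions and 3 are those of Pcdh7. Those 3 lie close to predicted genes within it. The figure for higher regions rests on 15 regions, of which 12 were taken by host gene. The way of choosing regions bears on these distances. Over both lists the median was 30.7 kb, against 7.55 kb by nearest gene alone and 60.3 kb by host gene alone. Distance is therefore not read as a difference between higher and lower regions.
Neighbouring regions that the lists assign to the same gene had the same call in 7 of 10 pairs and opposite calls in 3, at Pcdh7, Pcdh9 and Pcdh15. The lower regions inside the RefSeq spans of Cdh13 and Cdh18, and the further higher regions inside that of Cdh18, are not in these pairs. Such pairs were not counted over all genes. Of the 5 family genes that held at least 2 regions in introns, 2 were in both lists (40.0%), against 160 of 285 such genes overall (56.1%).

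Related genes of the adhesion pathway were split between the lists as well. Their counts stand beside the 10.7% of protein-coding genes that had a region, 7.21% a higher and 4.53% a lower one. These shares make no allowance for gene length, and 65.4% of protein-coding genes of at least 300 kb held a region inside. The lengths of the related genes were not compared. Of 22 other genes of the cadherin superfamily, 8 had regions, 2 of them higher alone, 4 lower alone and 2 both. Dchs2, a Dachsous cadherin, had 2 higher regions (3.69 and 1.48), and its relative in the Fat branch, Fat1, had 1 (3.07). Lower regions lay in an exon of Celsr1, a planar polarity gene (4.76), in introns of Dsg1a, a desmosomal cadherin (3.33), and Ret, a receptor kinase with cadherin-like domains (2.22), and upstream of Fat2 (2.66). Fat3 had a higher (1.69) and a lower (3.13) region, and so had Clstn2 (1.95 and 3.80).
Of 17 catenin and adaptor genes, 4 had regions. Ctnna2, the neuronal alpha-catenin, had 3 higher regions (4.72, 1.95 and 1.69) and 1 lower region (1.73), Ctnnd2, a delta-catenin of neurons, a higher region (5.08), the plakophilin gene Pkp1 a higher region (1.95), and Ctnna3 a lower region (2.66). Of 15 genes that regulate the protocadherin clusters, 4 had a region, each higher: Nipbl, which loads cohesin (3.39), Wapl, which releases it (1.69), and the cohesin subunits Stag1 (1.85) and Stag2 (1.95). Rad21, Smc1a and Smc3, which encode the other cohesin subunits of that list, had none, nor had Ctcf, Setdb1, Smchd1, Wiz, Rest or the DNA methyltransferase genes. Of 14 genes of protocadherin signalling, Cyfip2 (3.67) and Abi1 (3.39), both of the WAVE complex, had a higher region each. Since 64.2% of all regions were higher, such small one-sided counts are descriptions of these lists.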

How the data were processed

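H3K9me3 and IgG CUT&Tag libraries, 1 each per genotype, were made from sorted microglia. Per the labels' protocols, PCR ran for 14 cycles. Bowtie2 2, FastQC, CASAVA 1.4 and the mm9 build appear in the submitters' processing notes. No source used here gives the peak caller, the use of the IgG libraries or the rule for a list. Per the file headers, the authors' deposited lists give position, width, peak score, annotation and distance to the nearest start. They hold no counts, so depth is unknown.

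Of 3428 transcripts with a RefSeq symbol, 3419 overlapped the gene of that name on GRCm38, so coordinates were read as GRCm38 and none was converted. The build of the regions themselves was not given, so overlaps with RefSeq genes and distances to them rest on that reading.

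With 1 library per group no test was made; counts, shares and regions per Mb of gene were set beside all listed regions or genes. A host gene was preferred to the nearest gene. Every member gene is named; fuller values were given for promoter and clustered regions, high scores and genes with several regions, and other lists were fixed by gene name. 1 further gene of the microglia list is not reported here. Members and lists were chosen with earlier results of these data known. The limit of 300 kb for long genes, the RefSeq spans and the genes with 3 lower regions were added after the values were seen. Counting code was tested on simulated lists. The work used pandas 2.3.3, scipy 1.17.1, numpy 2.4.6, matplotlib 3.10.9 and Python 3.11.15.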

Additional observations from a re-analysis of the deposited data

How the results depend on the processing

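No paired analysis was possible because each group had 1 library. The share of member regions higher in KO ranged from 57.1% (nearest gene alone) to 75% (host gene alone) over 9 alternatives, and that of members outside the clusters from 50.0% to 75% over 9, all within the main interval; these covered 2 score thresholds, merging within 10 kb, genes counted once, autosomes alone, regions inside the gene or promoter, and RefSeq spans. RefSeq spans, chosen after seeing the data, took 22 regions too, 18 of them shared. By nearest gene alone the members made up 0.129% of all regions, against 0.405% in the main count. By nearest gene or by host gene alone 7 genes had a region, against 12, because each way takes fewer regions, and the intronic share was 42.9% and 100.0%, against 81.8%, because a host is named for introns and exons alone. The share higher in the clusters rests on 1 region, so no alternative could move it. By host gene alone the clusters held no region, so no share could be given. The median distance to the nearest start was 7.55 kb by nearest gene and 60.3 kb by host gene. Regions per Mb of family gene were 2.39 with 10 kb flanks and 1.4 at or above the median score. The score limit kept 2964 of the 5432 regions. The density over all protein-coding genes was not computed at either setting, so these values cannot be set against its 2.11 per Mb. Depth is unknown, so weak regions missed in either library cannot be counted.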

Other observations

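The lists and the RefSeq spans differed on which regions lie inside Cdh13 and Cdh18. 4 listed regions lay inside the RefSeq span of one of these genes but were classed as distal intergenic and named for other genes. At Cdh18 these were higher regions on chromosome 15 from 22584038 to 22584320 (authors' score 3.18) and from 22978305 to 22978764 (3.69), and a lower region from 22564658 to 22565024 (2.08). Cdh18 thus held 3 higher regions and 1 lower region by span, against 1 higher region by the lists. At Cdh13 the addition was a lower region on chromosome 8 from 118176821 to 118177110 (2.47), 36.9 kb from the end of the span with the lower coordinates. Another lower region, from 118131845 to 118132134 (5.56), lay 7.88 kb outside that end. The 3 higher regions of Cdh13 lay 482, 862 and 923 kb from the same end. These positions were noticed after the values were seen and have no replicate check.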
